A study of Mus musculus with 6 samples.

Results

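The 8 genes described here are Fabp4, Fabp5, Fabp3, Cd36, Lpl, Gpihbp1, Pparg and Angptl4, a set of fatty acid carriers, the lipoprotein lipase with its anchor and inhibitor, and the nuclear receptor PPAR gamma. They were taken by symbol from the 21718 genes of the deposited count table, and all 8 passed the filter on low counts, as did 15963 genes in all. The set was chosen by what the genes do, around Fabp4, which was itself selected on its fold change and adjusted p between the marrow groups in an earlier look at the same counts. The values of the 8 genes in that contrast are therefore a description, without a test.

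Whole prostate tumours of a genetic mouse model were profiled by poly-A RNA sequencing, with 6 samples in 2 groups of 3. Every recipient was given 900 rad and a bone marrow graft when 6 weeks old and was castrated when 8 weeks old, and the tumour was taken 16 weeks after castration, at an age of 24 weeks. The F10-intact group received marrow from F10fl/fl donors without LysM-Cre, and the F10-deleted group received marrow from F10fl/fl; LysM-Cre+ donors, in which Cre removes the factor X gene in myeloid cells. LysM-Cre is expressed from the Lyz2 locus, chiefly in macrophages, monocytes and neutrophils. It came with the donor marrow, so F10 stays intact in the recipient's own cells. Cre was carried only by the F10-deleted donors, so an effect of Cre and an effect of F10 loss cannot be told apart. The labels do not say whether each sample is a separate animal, so error measures cover the spread between these samples only. Samples are numbered 1, 3 and 4 in each group.

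Long-chain fatty acids reach cells from circulating lipoproteins and from albumin. Lipoprotein lipase cuts them from triglycerides on the capillary wall, where GPIHBP1 holds the enzyme and ANGPTL4 inactivates it. CD36 takes them up at the membrane, fatty acid binding proteins carry them in the cytosol, and PPAR gamma, which binds fatty acids, drives several of these genes in adipocytes and macrophages. FABP4 is the carrier of adipocytes, and it is also made by capillary endothelium, some macrophages and differentiated urothelium. FABP5 is the carrier of skin and other epithelia, and FABP3 that of heart and skeletal muscle.

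The totals ranged from 9237308 to 11821588 counts per sample. F10 had 2 to 17 counts in the F10-intact samples and 4 to 9 in the F10-deleted samples, so these whole-tissue counts check neither the deletion nor the labels. Prostate luminal markers were present in every sample, with 9 or 10 of 10 listed genes detected, although Msmb was at or near 0 throughout. F10-intact sample 4 stood apart across all genes, and F10-deleted sample 3 stood apart in its urothelial markers but not across all genes. Chi-square per degree of freedom between samples of 1 group was 40.5 and 77.5 in the pairs with F10-intact sample 4, against 22.3 to 24.2 in the other pairs. F10-deleted sample 3 had urothelial markers at a summed CPM (count scaled to library size) of 2298, against 348 to 803 in the other 5 samples.

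Of the 8 genes, 7 had higher mean levels in the F10-deleted tumours and 1, Fabp5, had a lower level. The groups did not overlap for 6 genes, Fabp4, Fabp3, Cd36, Gpihbp1, Pparg and Angptl4, all of them higher in the F10-deleted samples, where 8.99% of all tested genes had groups that did not overlap in that direction. Fabp4 alone passed the edgeR threshold of an adjusted p under 0.05, where 0.0439% of tested genes passed with higher values. Since the set was proposed from this contrast, nothing is read from these counts. The median log2 fold change of the 8 genes was 1.25, and that of all tested genes was -0.02. Every fold change sets the F10-deleted group over the F10-intact group, and CPM values were scaled by TMM factors. In whole tissue, more cells of a type and more RNA per cell cannot be told apart.

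**Figure D1:**
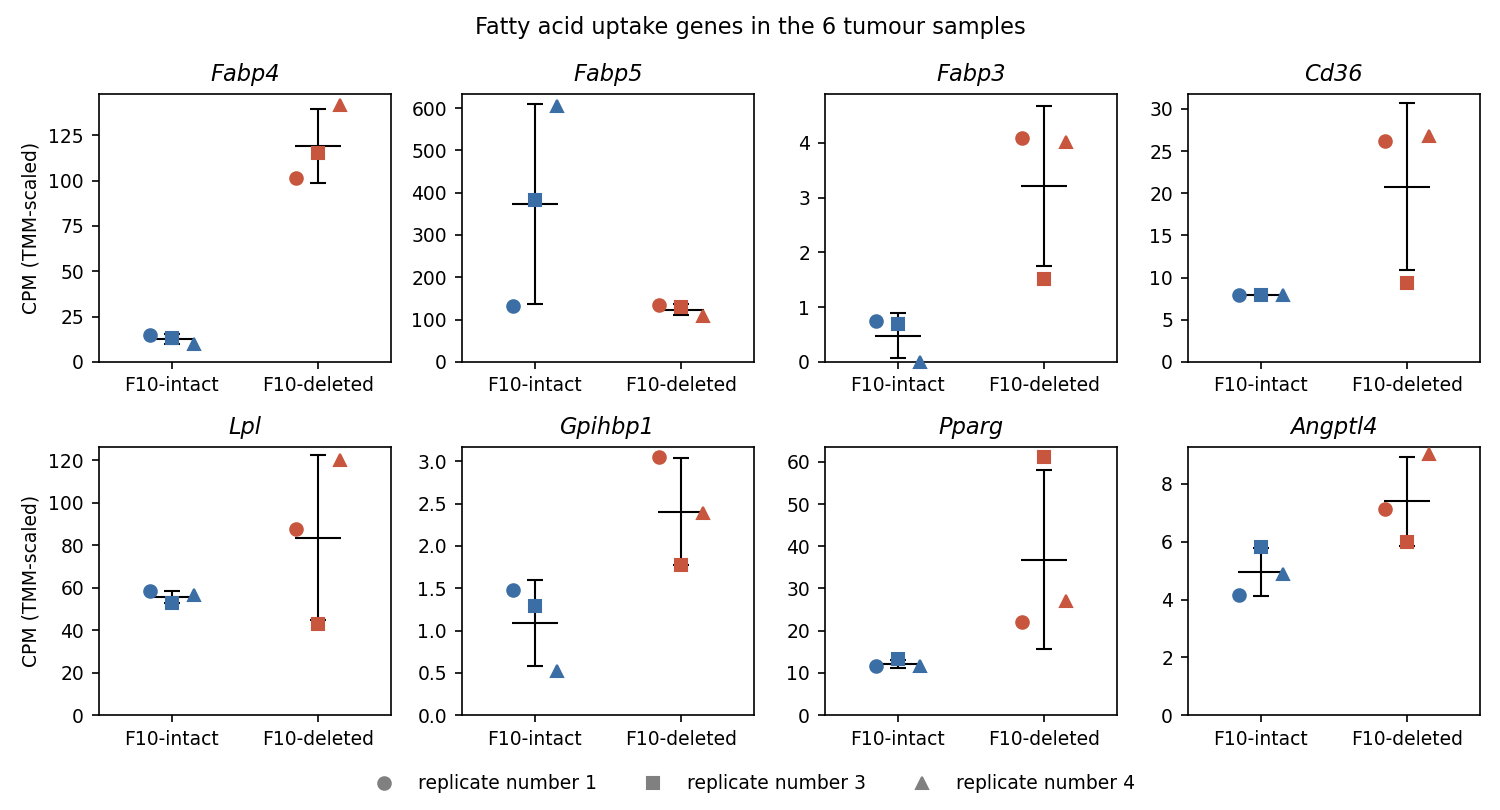
TMM-scaled CPM of each of the 8 genes in the 3 F10-intact (blue) and 3 F10-deleted (red) samples, with the marker shape giving the replicate number and the black bars the group mean and SD. Fabp4 lies at 9.75 to 14.9 CPM in the F10-intact samples and at 101 to 141 CPM in the F10-deleted samples, while F10-deleted sample 3 is the lowest of its group for Fabp3, Cd36, Lpl, Gpihbp1 and Angptl4 and the highest for Pparg.

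Among the carriers, Fabp4 (ENSMUSG00000062515, chromosome 3, 10204088 to 10208576, minus strand, GRCm38) stood at 14.9, 13.0 and 9.75 CPM in F10-intact samples 1, 3 and 4 and at 101.3, 115.0 and 141 CPM in F10-deleted samples 1, 3 and 4. All 3 F10-deleted samples were high and close together, and the lowest of them was 6.78 times the highest F10-intact sample. The group means were 12.6 ± 2.63 and 119 ± 20.4 CPM (SD, n = 3 each), and the log2 fold change was 3.24 ± 0.21 (SE, 95% interval 2.75 to 3.74). Leaving out 1 sample gave 3.09 (F10-intact sample 4) to 3.41 (F10-intact sample 1), and 3.30 where F10-deleted sample 3 was dropped. The adjusted p no longer passed in 3 alternatives, at log2 fold changes of 3.24 with the replicate number as a block, 3.27 when F10-intact sample 3 was dropped and 3.10 when F10-deleted sample 4 was. By log2 fold change Fabp4 ranked 118 from the highest among the 15963 tested genes.

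Fabp5 (ENSMUSG00000027533, chromosome 3, 10012548 to 10016607) showed the opposite order. It had 133, 383 and 605 CPM in F10-intact samples 1, 3 and 4 and 133.5, 129 and 109 CPM in F10-deleted samples 1, 3 and 4. Fabp5 was high in F10-intact samples 3 and 4 only, and F10-intact sample 1 lay at the level of the F10-deleted samples, so the groups overlapped. The means were 373 ± 236 and 124 ± 13.2 CPM (SD, n = 3 each). Its log2 fold change was -1.59 ± 0.48 (SE, 95% interval -2.73 to -0.46). Dropping F10-intact sample 4 gave -1.06, and dropping F10-intact sample 1 gave -1.97. Fabp5 has processed pseudogenes of near-identical sequence, and how reads shared with them were counted is not given in the sources used here.

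Fabp3 (ENSMUSG00000028773, chromosome 4, 130308595 to 130315463) had the fewest reads of the 8 genes in the F10-intact group. It had 8, 8 and 0 counts in F10-intact samples 1, 3 and 4 and 39, 18 and 47 counts in F10-deleted samples 1, 3 and 4. The 0 in F10-intact sample 4 allows up to 3 counts, or 0.311 CPM, and covers counting error only. The corresponding levels were 0.738, 0.686 and 0 CPM and 4.10, 1.52 and 4.01 CPM, so F10-deleted sample 3 lay between the F10-intact samples and the other F10-deleted samples. The log2 fold change was 2.69 ± 0.80 (SE, 95% interval 0.83 to 4.55), and 2.15 without F10-intact sample 4. Fabp3 overlaps Zcchc17 and Gm10570 on the opposite strand, and the strand setting of the counting is not given in the sources used here.

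Fabp4 and Fabp5 lie in a cluster of carrier genes on chromosome 3, 191.5 kb apart. The other carrier of the cluster in the table, Fabp9, a testis form, had 0 to 4 counts in every sample. Of the tested neighbours of other families, Impa1, an inositol phosphatase 107.9 kb from Fabp4, had a log2 fold change of -0.37, Slc10a5, 127.6 kb away, had -0.51, and Zfand1, 135.9 kb away, had -0.0014. None of these was above 0 as Fabp4 was. The ratio of Fabp4 to Fabp5, each as CPM per kilobase of the main transcript, was 0.124, 0.0375 and 0.0178 in F10-intact samples 1, 3 and 4 and 0.836, 0.984 and 1.43 in F10-deleted samples 1, 3 and 4. Fabp4 thus stood far below Fabp5 in the F10-intact samples, below it in F10-deleted samples 1 and 3 by less, and above it in F10-deleted sample 4.

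Cd36 (ENSMUSG00000002944, chromosome 5, 17781690 to 17888801, minus strand), the membrane fatty acid transporter, was nearly constant in the F10-intact group. It had 7.94, 7.97 and 7.88 CPM in F10-intact samples 1, 3 and 4 and 26.2, 9.39 and 26.8 CPM in F10-deleted samples 1, 3 and 4. F10-deleted samples 1 and 4 were high, and sample 3 exceeded the highest F10-intact sample only 1.18 times. The log2 fold change was 1.39 ± 0.38 (SE, 95% interval 0.49 to 2.28), and 1.77 without F10-deleted sample 3.

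Lipoprotein lipase, Lpl (ENSMUSG00000015568, chromosome 8, 68880491 to 68907448), had its high and low F10-deleted samples in the same order. It stood at 58.3, 52.6 and 56.4 CPM in F10-intact samples 1, 3 and 4 and at 87.9, 42.7 and 120.1 CPM in F10-deleted samples 1, 3 and 4. F10-deleted sample 3 was the lowest of all 6, so the groups overlapped. Its log2 fold change was 0.58 ± 0.33 (SE, 95% interval -0.20 to 1.36). Single samples moved its size, to 0.22 when F10-deleted sample 4 was dropped and to 0.93 when F10-deleted sample 3 was.

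Gpihbp1 (ENSMUSG00000022579, chromosome 15, 75596628 to 75599481), the endothelial anchor of the lipase, rested on few reads. It had 16, 15 and 5 counts in F10-intact samples 1, 3 and 4 and 29, 21 and 28 counts in F10-deleted samples 1, 3 and 4, or 0.518 to 1.48 CPM and 1.78 to 3.04 CPM. The groups did not overlap, although the lowest F10-deleted sample was only 1.20 times the highest F10-intact one. Its log2 fold change was 1.11 ± 0.46 (SE, 95% interval 0.03 to 2.19), and 0.79 without F10-intact sample 4.

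Angptl4 (ENSMUSG00000002289, chromosome 17, 33773750 to 33781830, minus strand), a secreted inhibitor of the lipase and a PPAR target, had 4.15, 5.83 and 4.87 CPM in F10-intact samples 1, 3 and 4. It had 7.14, 6.01 and 9.04 CPM in F10-deleted samples 1, 3 and 4. The groups were adjacent, since F10-deleted sample 3 exceeded F10-intact sample 3 only 1.03 times. Its log2 fold change was 0.58 ± 0.28 (SE, 95% interval -0.07 to 1.22), with a range of 0.40 to 0.74 when 1 sample was left out.

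Pparg (ENSMUSG00000000440, chromosome 6, 115360951 to 115490399), which encodes PPAR gamma, had another sample in the lead. It had 11.6, 13.3 and 11.6 CPM in F10-intact samples 1, 3 and 4 and 22.2, 61.1 and 27.1 CPM in F10-deleted samples 1, 3 and 4. F10-deleted sample 3 was far above the others, but the other 2 F10-deleted samples also lay above every F10-intact sample. Its log2 fold change was 1.59 ± 0.38 (SE, 95% interval 0.71 to 2.48), and it was 1.05 without F10-deleted sample 3. Fabp4 in F10-deleted sample 3, at 115.0 CPM, lay between samples 1 and 4 and did not share the lead of Pparg there.

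Promoter sequences of Cd36 and Pparg are shown because these genes led in different F10-deleted samples, and because Pparg starts at several sites that gene counts cannot tell apart. RefSeq entries (GRCm38.p6) were found for 3 of the 8 genes, Fabp3, Cd36 and Pparg, in 5 windows of 250 bases upstream of a start, 3 of them for Pparg. The sequences run 5′ to 3′ on the gene's strand. Capitals mark matches on either strand to AGGTCA, the hexamer bound by nuclear receptors, to GGGCGG, the GC box, and to TATAAA, and no matches overlapped.
Cd36, chr5:17835897-17836146, minus strand: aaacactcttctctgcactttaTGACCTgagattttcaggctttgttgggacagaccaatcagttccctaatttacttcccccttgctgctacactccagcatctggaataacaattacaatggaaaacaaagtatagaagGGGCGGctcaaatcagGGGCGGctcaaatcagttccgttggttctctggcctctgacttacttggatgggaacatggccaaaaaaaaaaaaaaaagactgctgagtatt
Pparg, upstream start, chr6:115360894-115361143, plus strand: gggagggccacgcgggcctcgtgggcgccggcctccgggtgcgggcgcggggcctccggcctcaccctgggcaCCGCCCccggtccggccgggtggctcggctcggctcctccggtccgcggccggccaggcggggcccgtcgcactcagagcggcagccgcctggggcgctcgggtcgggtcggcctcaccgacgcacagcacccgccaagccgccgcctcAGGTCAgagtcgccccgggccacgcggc
Pparg, downstream start, chr6:115421816-115422065, plus strand: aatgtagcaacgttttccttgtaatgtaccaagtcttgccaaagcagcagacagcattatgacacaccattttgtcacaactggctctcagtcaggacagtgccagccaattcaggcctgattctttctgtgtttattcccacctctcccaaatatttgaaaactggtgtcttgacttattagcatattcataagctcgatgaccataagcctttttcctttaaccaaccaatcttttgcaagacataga
The upstream Pparg window had a G and C content of 82.4% and held 1 hexamer and 1 GC box. The downstream window, by the start of the adipocyte form PPAR gamma 2, had 40.8% and held none of the motifs searched. The Cd36 window held 1 hexamer and 2 GC boxes, and the Fabp3 window held none. The Cd36 window lies inside the annotated gene, whose upstream end is at 17888801, so it belongs to an internal start. The Pparg window between those shown, at 63.6%, held 1 hexamer, 1 TATAAA and 2 GC boxes. Of 32851 windows of this length in the table, 14.0% held the hexamer, 32.7% the GC box and 12.4% TATAAA. The PPAR element, a direct repeat of the hexamer spaced by 1 base, was in 0 of the 5 windows and in 0.0335% of all, and the E-box CACGTG was in 0 of the 5 and in 6.02% of all. These matches describe letters in the windows and not binding.

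**Figure D2:**
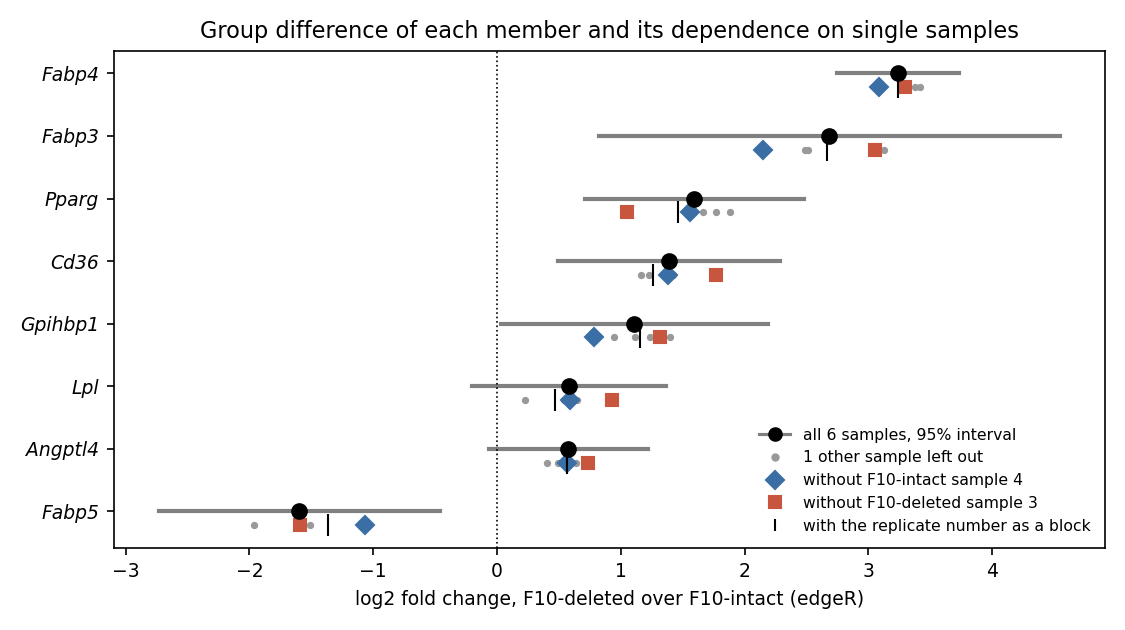
Log2 fold change of each gene, F10-deleted over F10-intact, from edgeR with all 6 samples (black point, grey line for the 95% interval), and the same value with 1 sample left out or with the replicate number as a block (smaller marks below each line). Fabp4 stays between 3.09 and 3.41 with any 1 sample left out, while Pparg is 1.05 and Lpl 0.93 without F10-deleted sample 3, and Fabp5 is -1.06 without F10-intact sample 4.

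Per length, the order of levels differed between the groups. In the F10-intact samples Fabp5 led with a mean of 378 CPM per kilobase, followed by Fabp4 at 14.0, Lpl at 13.6, Pparg at 6.89, Cd36 at 2.33, Angptl4 at 1.5, Gpihbp1 at 1.33 and Fabp3 at 0.577 CPM per kilobase. The sample ranges of Fabp4 and Lpl overlapped, as did those of Angptl4 and Gpihbp1 and of Gpihbp1 and Fabp3. In the F10-deleted samples Fabp4 had 133 and Fabp5 125 CPM per kilobase, with overlapping ranges. Pparg at 20.8 and Lpl at 20.3 CPM per kilobase came next and overlapped, ahead of Cd36 at 6.12, Fabp3 at 3.90, Gpihbp1 at 2.91 and Angptl4 at 2.24 CPM per kilobase, each of which overlapped with the next. Among all tested genes, Fabp5 and Fabp4 were at the percentiles 98.1 and 93.3 of mean level per length, and Gpihbp1 and Angptl4 at 24.0 and 21.9.

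Markers of cell types that make these proteins moved with the groups to different degrees. The white adipocyte list, without the 8 genes, summed to 133, 76.5 and 114 CPM in F10-intact samples 1, 3 and 4 and to 280, 118 and 241 CPM in F10-deleted samples 1, 3 and 4. Log2 fold changes had a median of 2.38, with 10 of 11 tested genes above 0, and Lipe and Cfd made up 55.9% of the sum. Lipe, the 1 tested gene below 0, at -0.13, had 99.4 of the 114 CPM of F10-intact sample 4. Cfd had 1.24 CPM in that sample. The hormone gene Adipoq had 3.60, 0.686 and 0.207 CPM in the F10-intact samples and 9.77, 1.18 and 17.4 CPM in the F10-deleted samples. In F10-deleted sample 3, 10 of the 13 listed genes lay within the F10-intact range, among them Adipoq and the lipid droplet genes Plin1, at 0.930 CPM, and Cidec, at 0.677 CPM. The other 3 lay above it: the droplet gene Plin4 at 23.9 CPM against at most 19.9, Pck1 at 1.18 against 0.830, and the adrenergic receptor gene Adrb3 at 1.35 against 1.01 CPM. Fabp4 in that same sample, at 115.0 CPM, lay far above its F10-intact maximum of 14.9 CPM. Cd36 and Lpl were high in F10-deleted samples 1 and 4, the samples in which the adipocyte and skeletal muscle lists were both highest. No defining marker of the adipocyte list was at 0 in a whole group.

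Skeletal muscle markers summed to 155, 29.1 and 22.2 CPM in F10-intact samples 1, 3 and 4 and to 2311, 948 and 2234 CPM in F10-deleted samples 1, 3 and 4, with all 14 listed genes above 0, a median log2 fold change of 4.63 and 42.0% of the sum in Myh4 and Tnnt3. Fabp3, the muscle carrier, was likewise lowest of the F10-deleted group in sample 3, as were Cd36, Lpl, Gpihbp1 and Angptl4. Urothelial markers stood highest in F10-deleted sample 3, as Pparg did. Their list had 9 of 10 genes above 0 and a median of 2.42, and Krt20 was at 52.8 CPM in that sample against 0.726 to 6.14 CPM in the other 5. In F10-deleted samples 1 and 4 the list summed to 625 and 666 CPM, within the F10-intact range of 348 to 803 CPM. Upk1b and Gata3 made up 56.0% of the sum. For 4 of the 10 genes the groups did not overlap, with higher F10-deleted values, against 8.99% of all tested genes. Averaged over the list's genes, log2 CPM relative to the F10-intact mean was 0.721, 0.111 and -0.832 in F10-intact samples 1, 3 and 4. It was 0.747, 3.74 and 0.883 in F10-deleted samples 1, 3 and 4. The part of fat, muscle and urothelial tissue in these differences was not tested.

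Blood endothelial markers, which mark a source of Fabp4, Cd36 and Gpihbp1, summed to 136, 85.1 and 57.5 CPM in F10-intact samples 1, 3 and 4 and to 151, 126 and 104 CPM in F10-deleted samples 1, 3 and 4. The groups overlapped in the sum, with 11 of 12 genes above 0 and a median of 0.67. For 4 of the 12 genes the groups did not overlap, all with higher F10-deleted values, against 8.99% of all tested genes. The capillary list of fat and muscle, 5 of whose 10 genes were tested, had 3 above 0 and a median of 0.26. It summed to 225 to 794 CPM in the F10-intact and 351 to 661 CPM in the F10-deleted samples. Of that sum 97.7% was Sparcl1 and Aqp1, the 2 tested genes below 0, at -0.24 and -0.10. Cd300lg, the 1 tested gene of the list whose groups did not overlap, was higher in the F10-deleted samples. It had 3.84 to 3.99 CPM there, against 0.622 to 2.23 CPM in the F10-intact samples. Macrophage markers, led by Lyz2 and C1qb, summed to 684 to 931 CPM in the F10-intact and to 726 to 826 CPM in the F10-deleted samples, with 4 of 13 above 0 and a median of -0.18. Lyz2 is the locus of LysM-Cre, which only the F10-deleted donors carried, so its counts may differ between the groups by design. The macrophage sums overlapped between the groups. For 0 of the 13 tested macrophage genes the groups stood apart with higher F10-deleted values, and for 1 with lower values, against 8.99% and 7.67% of all tested genes. The part of these cells in the Fabp4 difference was not tested.

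For Fabp5, the prostate luminal list moved alongside. It summed to 3540, 5118 and 6692 CPM in F10-intact samples 1, 3 and 4 and to 2619 to 2868 CPM in the F10-deleted samples, with 8 of 9 tested genes below 0 and a median of -1.46. F10-intact samples 3 and 4 were high for both the list's sum and Fabp5, and Sbp and Krt18 made up 65.0% of that sum. Averaged over the tested genes of the list, log2 CPM relative to the F10-intact mean was -0.57, -0.279 and 0.85 in F10-intact samples 1, 3 and 4. By that measure F10-intact sample 4 alone was high. Basal and squamous markers went the other way, with 9 of 10 above 0, a median of 0.96 and sums of 405 to 861 CPM against 904 to 1357 CPM. Fibroblast and smooth muscle lists had medians of 0.57 and 0.18, and the leukocyte list -0.21. The part of epithelial makeup in the Fabp5 difference was not tested.

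**Figure D3:**
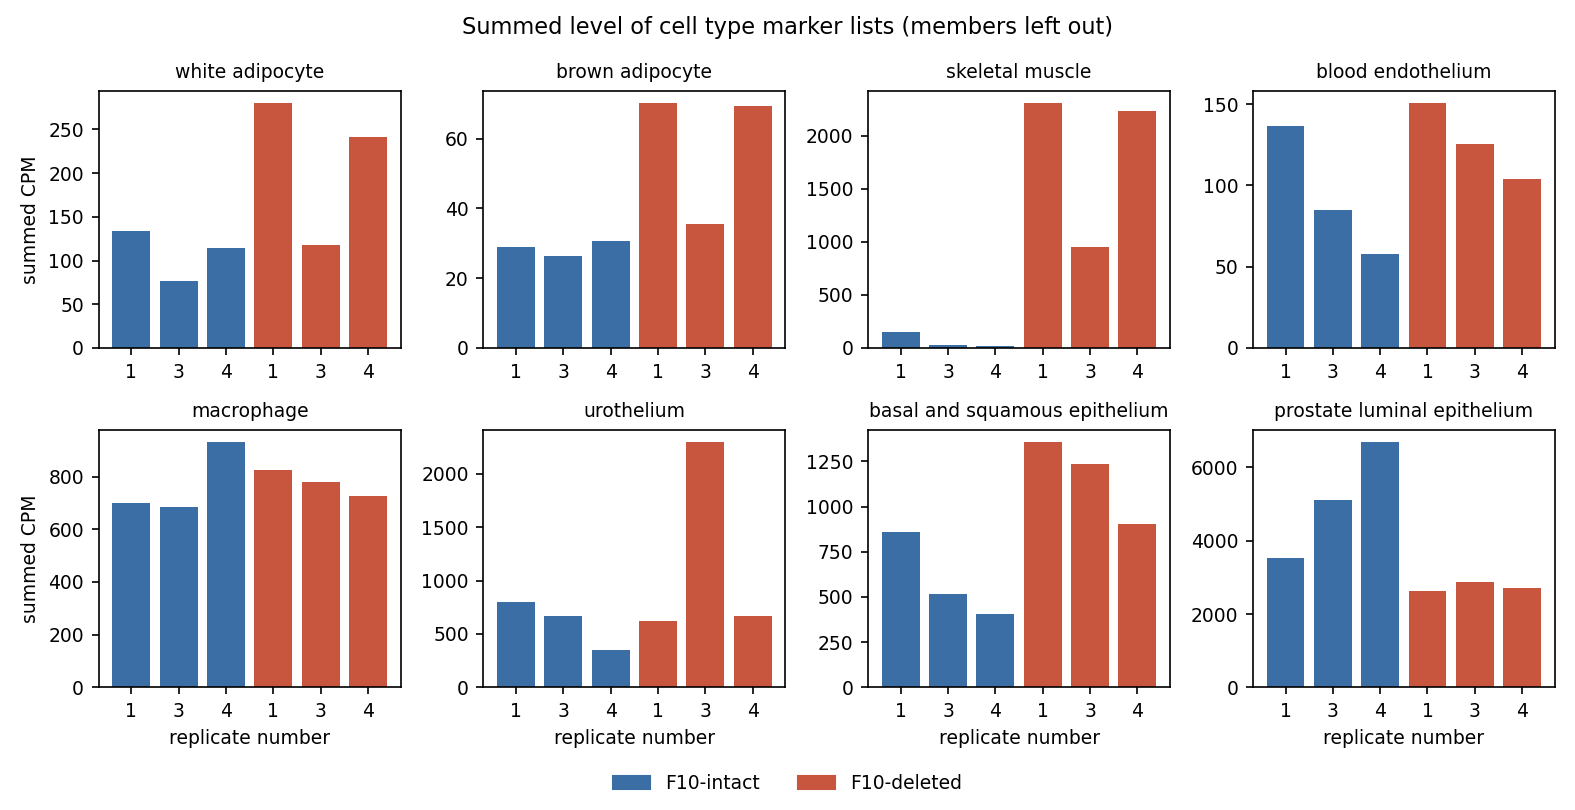
Summed CPM of 8 marker lists in each sample, with F10-intact samples in blue and F10-deleted samples in red, each numbered 1, 3 and 4. White adipocyte markers sum to 280 and 241 CPM in F10-deleted samples 1 and 4 but to 118 CPM in sample 3, where urothelial markers reach 2298 CPM.

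Other genes of fatty acid handling were read from 6 lists that left out the 8 genes, with 129 genes in the table and 116 tested. With edgeR, 0 of the 116 passed in either direction, and the smallest adjusted p was 0.142. At an unadjusted p under 0.05 there were 18 higher and 5 lower values, where 6.15% and 4.74% of all tested genes gave such values. DESeq2 called 8 higher and 1 lower, limma-voom called 0, and the edgeR test without F10-deleted sample 3 called 1, Pck1. The groups did not overlap for 16 genes with higher and 7 with lower values, where 8.99% and 7.67% of tested genes did not overlap. The median log2 fold change of the 116 was 0.06.

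Among other intracellular lipid carriers, 4 of 5 tested genes were above 0, with a median of 0.17. The retinoic acid carrier Crabp2 had a log2 fold change of 0.74 and the bile acid carrier Fabp6 0.17. None of the 5 had groups that did not overlap. Genes of fatty acid entry and activation had 11 of 17 above 0 and a median of 0.12. The acyl-CoA synthetase Acsl6 was at 1.73 ± 0.51, and the transporter Slc27a4 and the synthetase Acsl3 were at 0.43 and 0.38 (SE, edgeR adjusted p = 0.271, 0.498 and 0.502). Acsl6 had 0.518 to 1.37 CPM in the F10-intact and 1.95 to 4.83 CPM in the F10-deleted samples.

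Lipoprotein lipolysis and lipase control had 10 of 18 genes above 0 and a median of 0.12. The receptor Lrp8 was at 0.97 and the proprotein convertase Pcsk5 at 0.73 (edgeR adjusted p = 0.323 and 0.346). Lrp8 had 1.75 to 2.59 CPM in the F10-intact and 3.67 to 5.08 CPM in the F10-deleted samples. Triglyceride storage and breakdown had 13 of 23 above 0 and a median of 0.05. Dgat2, which makes triglycerides, was at 0.86 ± 0.22, the droplet protein Cidea at 3.70 ± 0.99 and Plin1 at 2.88 ± 0.91 (SE, edgeR adjusted p = 0.222, 0.244 and 0.309). Dgat2 was at 19.6 to 30.4 CPM in the F10-intact and 35.2 to 53.5 CPM in the F10-deleted samples.

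PPAR gamma partners and adipogenic factors had 15 of 27 genes above 0 and a median of 0.05, and 1 higher and 4 lower values at an unadjusted p under 0.05. The retinoid receptor Rxrg, a partner of PPARs, was at -1.56 ± 0.54, the factor Klf15 at -0.98 ± 0.38 and the related receptor Ppara at 1.33 ± 0.53 (SE, edgeR adjusted p = 0.347, 0.405 and 0.416). Klf15, which acts in adipocyte differentiation, had 13.0, 13.1 and 16.7 CPM in F10-intact samples 1, 3 and 4 and 11.5, 3.98 and 6.31 CPM in F10-deleted samples 1, 3 and 4. PPAR target genes had 17 of 26 above 0 and a median of 0.26, with 7 higher and 1 lower value at an unadjusted p under 0.05. The carboxylase Acaca was at 0.75 ± 0.16, the epoxide hydrolase Ephx2 at 0.88 ± 0.20 and the desaturase Scd1 at 0.93 ± 0.22 (SE, edgeR adjusted p = 0.142, 0.174 and 0.181). All 3 had groups that did not overlap, and Ephx2 had 7.57 to 9.0 CPM against 13.1 to 17.0 CPM.

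**Figure D4:**
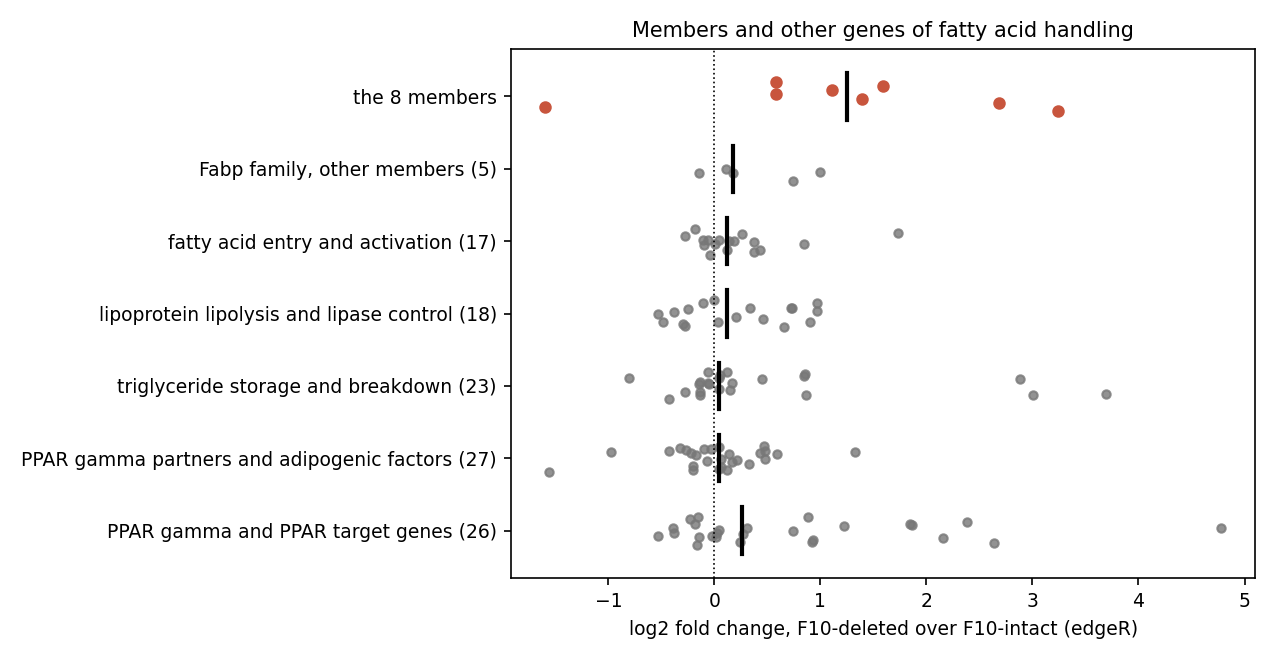
Log2 fold change, F10-deleted over F10-intact, of the 8 genes (red) and of the tested genes of 6 related lists (grey, number of genes in brackets), with black bars for the medians. The medians of the 6 lists lie between 0.05 and 0.26, and that of the 8 genes is 1.25.

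The genes whose pattern was most like that of each member were ranked by Pearson's r of log2 CPM over the 6 samples, among 13925 named genes with a mean of at least 1 CPM. With 6 samples in 2 groups many genes reach a high r, and 374 exceeded 0.9 with Fabp4. Among the 3 closest to Fabp4 were Runx1, a transcription factor of blood and epithelium, and Tph1, which makes the precursor of serotonin, at r of 0.994 and 0.992. Tph1 had 0.829 to 1.57 CPM in the F10-intact samples and 5.25 to 7.59 CPM in the F10-deleted samples. Runx1 had 70.9 to 75.1 CPM and 109 to 111 CPM, so its groups stood apart by less but varied little.

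For Fabp5 the closest were Mlph, a melanosome and vesicle transport protein, Tgoln1 of the Golgi network and the carrier Slc5a8, all at an r of 0.993 to 0.994. Slc5a8 had 40.4, 146 and 203 CPM in F10-intact samples 1, 3 and 4 and 39.1 to 45.5 CPM in the F10-deleted samples, as Fabp5 had its high values in the same pair of F10-intact samples. For Cd36 they were Abcd2, a peroxisomal fatty acid transporter, Pck1, an enzyme of glycerol synthesis in fat, and Slc25a4, the mitochondrial nucleotide carrier, at r of 0.984, 0.979 and 0.970. Pck1 had 0.171 to 0.830 CPM in the F10-intact samples and 21.3, 1.18 and 19.8 CPM in F10-deleted samples 1, 3 and 4. For Pparg they were Atrn, Tnpo2 and Dennd2c at r of 0.999, 0.998 and 0.994, and Atrn peaked at 528 CPM in F10-deleted sample 3.

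The closest to Fabp3 were Usp13, Tmem65 and Gpihbp1, itself one of the 8 genes, at r of 0.999, 0.987 and 0.987. The closest to Gpihbp1 were Grasp, Rtn2 and Prdm16 at r of 0.996, 0.995 and 0.991. For Lpl they were Hmces, Nlrc5 and Gmnn at r of 0.993, 0.983 and 0.978, and for Angptl4 Jph1, Gabpa and Cenph at r of 0.997, 0.982 and 0.974. The number of genes above an r of 0.9 was 37 for Lpl and 89 for Angptl4, against 456 for Fabp5. Likeness over 6 samples is a description and says nothing of the size of a change: Hmces had a log2 fold change of 0.07.

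Read by replicate number, the F10-deleted sample was above the F10-intact sample of the same number in all 3 pairs for 6 genes. These are the 6 genes whose groups did not overlap, for which any pairing of the samples gives this result, so it adds nothing to that count. For Fabp4 the log2 differences were 2.75, 3.12 and 3.83 in numbers 1, 3 and 4. For Cd36 they were 1.70, 0.23 and 1.74, and for Pparg 0.92, 2.19 and 1.21. Fabp5 differed by 0.0052, -1.57 and -2.48, so number 1 showed almost no difference. Lpl differed by 0.59, -0.30 and 1.09 and changed direction between pairs.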

How the data were processed

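Poly-A RNA of 6 mouse tumour samples was read on stranded single-end libraries (120-base reads), as the labels' protocols state. Raw read counts per Ensembl gene were deposited by the authors, and STAR 2.7.10a, GRCm38 and DESeq2 (no role given) are named per the submitters' processing notes. No source used here names the counting program or its strand setting. Symbols and coordinates came from GENCODE M21 (GRCm38), which matched 21605 of 21718 identifiers. Lengths are those of the longest principal transcript.

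The fit was edgeR 4.0.16 quasi-likelihood (R 4.3.3, robust) with TMM factors, filterByExpr at a minimum count of 10 and Benjamini-Hochberg adjustment over 15963 genes at 0.05. Log2 CPM used a prior count of 2. On data simulated for this comparison over 15717 genes, it recovered 39 of 100 changes of 1 log2 unit and 87 of 98 of 2 log2 units. It made 7 false calls there. The simulated spread followed expression level alone, without the extra spread of single genes, so recovery in the real samples may be lower. Each alternative changed 1 choice: the tool (DESeq2 1.42.0, or limma-voom from limma 3.58.1), the scaling (RLE, upper quartile, or TMM computed after dropping the 50 genes of highest count), the filter, robust fitting, a block for the replicate number, or the samples, with each left out in turn.

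The 8 genes and all lists were chosen with earlier results of these data known. Named genes are the 8 genes and up to 3 per list with the smallest p and a mean of at least 1 CPM. They also include the 3 most like each of the 8 genes, and the markers. Adipoq, Plin1, Plin4, Cidec, Pck1, Adrb3, Krt20, Cd300lg, the brown fat genes and the chromosome 3 neighbours were named after their values were seen. A few items that this rule or the labels name are not reported here. Same-numbered samples deviated together from their group means across genes (correlations 0.35, 0.135 and 0.181 for numbers 1, 3 and 4), so an alternative fit blocked on that number. The labels state no pairing, and all printed fold changes, errors and calls come from the fit without the block unless the block is named. No pair of samples of the same group agreed within sampling noise, and pairs across the groups were not compared.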

Additional observations from a re-analysis of the deposited data

How the results depend on the processing

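The direction of all 8 genes held in all 15 alternatives. Fabp4 was called in 12 of them and lost in 3, among them the replicate block, at the same log2 fold change of 3.24. The block changed no other call among the 8 genes or the related lists. DESeq2 also called Fabp5, Fabp3, Cd36 and Pparg, and edgeR also called Fabp5 when F10-intact 1 was dropped and Cd36 when F10-deleted 3 was. Over all genes, 7 higher and 0 lower were called by edgeR (981 and 756 at an unadjusted p under 0.05), against 487 by DESeq2 (355 higher, 132 lower), 2 by limma-voom, 2 with at least 1 CPM in 3 samples, 3 without robust fitting, and 2 with the replicate block (1 higher, 1 lower). Leaving out 1 sample gave 0 to 72 calls (0 to 56 higher, 0 to 16 lower), with 0 when F10-intact 3 or F10-deleted 4 was dropped, 1 for F10-deleted 1, 5 for F10-intact 4, 18 for F10-deleted 3 and 72 for F10-intact 1. For the related lists the count was 0 with edgeR, 9 with DESeq2 (8 higher, 1 lower) and 0 to 1 with 1 sample left out. The causes were not tested. No scaling moved the median of all genes beyond the range -0.02 to 0.01. Depth limits Fabp3 and Gpihbp1, which had 16 and 36 counts in the whole F10-intact group.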

Other observations

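Of the brown fat markers, 5 of 5 tested genes had a log2 fold change above 0 (Dio2 barely so), with a median of 0.70, and they differed in which samples were high. Cidea stood at 13.2 and 14.1 CPM in F10-deleted samples 1 and 4 and at 1.44 CPM in sample 3, against 0.104 to 1.29 CPM in the F10-intact samples. The uncoupling protein gene Ucp1, which did not pass the filter on low counts, had 4.30 and 6.65 CPM in F10-deleted samples 1 and 4, and 0.254 CPM in sample 3, within the F10-intact range of 0.185 to 0.415 CPM. Prdm16, at 13.1 CPM in sample 3, lay above its F10-intact maximum of 11.8 CPM, and Dio2 was highest in sample 3, at 8.80 CPM against 5.25 and 5.80 CPM in F10-deleted samples 1 and 4 and 5.74 to 7.20 CPM in the F10-intact samples. The list summed to 70.3, 35.5 and 69.2 CPM in F10-deleted samples 1, 3 and 4 and to 26.5 to 30.6 CPM in the F10-intact samples.

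As shares of the summed CPM of the 8 genes, Fabp5 took 57.3%, 80.2% and 86.9% in F10-intact samples 1, 3 and 4 and 34.6%, 35.2% and 24.7% in F10-deleted samples 1, 3 and 4. Fabp4 took 6.44%, 2.73% and 1.40% in the former and 26.3%, 31.4% and 32.2% in the latter.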
